A study of Homo sapiens with 24 samples.

Results

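HIF-1 targets outside glycolysis are genes that hypoxia-inducible factor 1 (HIF-1) is known to switch on when oxygen is short and that do not encode glycolytic enzymes. The 10 examined were ANKRD37, NDRG1, CA12, MXI1, BNIP3, BNIP3L, EGLN1, EGLN3, VEGFA and ADM, chosen by name as listed hypoxia-inducible genes and found by gene identifier among 63241 entries of a table of untreated libraries and 36741 of a table of treated ones. All 10 were present in both tables and passed the filter on low values in both. HIF-1 is a pair of an oxygen-labile alpha subunit (HIF1A) and a stable partner (ARNT). With oxygen present, prolyl hydroxylases mark HIF1A for the VHL ubiquitin ligase and the protein is destroyed, so that its activity is set largely at the protein level. The hydroxylases need oxygen, iron and 2-oxoglutarate, and mitochondrial respiration, which consumes oxygen, is known to bear on them.

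The study sequenced RNA of human cells labelled SH-SY5Y, a neuroblastoma line used as a neuronal model, in 24 libraries, 3 in each of 8 groups. The cells carried a scrambled short hairpin (shScramble), a hairpin against MCART1 (shMCART1), a control construct for overexpression (oeNC) or an MCART1 overexpression construct (oeMCART1). Each was sampled without MPP+ and after 24 h in 0.5 mM MPP+, an inhibitor of respiratory complex I. SLC25A51, formerly named MCART1, carries NAD+ across the inner mitochondrial membrane into the matrix. No group lacked a construct, so every comparison was between cells that each carried one. Whether replicates came from separate cultures is not stated in the labels, and p-values thus measure only how far the deposited samples spread, which may be technical. Values are TPM, a relative transcript abundance corrected for transcript length and scaled to a common total per library, from which the sequencing depth is unknown. In bulk RNA, fewer cells of a type and less RNA per cell cannot be told apart.

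SLC25A51 itself stood at 11.0 TPM in shScramble and 7.28 in shMCART1, and at 7.91 and 5.33 TPM with MPP+. It reached 683 TPM in oeMCART1 and 936 TPM with MPP+, against 31.6 TPM in oeNC and 8.49 TPM in oeNC with MPP+. Of 9 neuroblastoma markers, TH was at 0 in every untreated library and 3 (TH, PHOX2A and DBH) were under 1 TPM in all of them, while NEFM (12.2 to 21.9 TPM as group means) and GATA3 (4.44 to 5.14 TPM) were present; 7 of the 9 were in the treated table, 2 of them (TH and STMN2) under 1 TPM throughout. The growth protocol in the labels names HEK293T, a human embryonic kidney line, beside SH-SY5Y, and the line is called here by its label only. Of 8 blood markers, HBB was at 0 in the untreated libraries and CD3E in the treated ones, 6 were under 1 TPM throughout in either table, and HBA1 stood at 10.3 to 36.6 TPM as group means. The summed TPM of 6 epithelial markers lay between 2.54 and 6.66, with KRT5 and KRT14 at 0 in the untreated libraries. Of the 6, 4 were under 1 TPM in all untreated libraries, and 3 of the 5 in the treated table were so throughout. The summed TPM of 8 mesenchymal markers lay between 20.5 and 38.7 untreated and between 8.61 and 23.8 with MPP+, none at 0 throughout. Of these 8, 3 were under 1 TPM in all untreated libraries and 4 in all treated ones. The fold changes of genes were related to transcript GC content in every comparison, with Spearman's rho across genes from -0.795 (untreated overexpression) to 0.767 (untreated knockdown), and the 10 genes' longest transcripts ranged from 38.9% GC (BNIP3L) to 58.5% (ADM).

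HIF-1 binds the core letters ACGTG or GCGTG, here searched on both strands in the 250 bases before each RefSeq start site (GRCh38.p14). Searched were 7 of the 10 genes, with 9 start sites (NDRG1, BNIP3L and VEGFA were not used here), and 6 of these 7 held at least 1 match. A gene counted here if any of its start sites had a match, and MXI1 had 3 start sites. Over 35116 promoters of the same length, counted by start site and not by gene, 18.5% held ACGTG, 32.2% held GCGTG and 43.2% held either. The stretches below belong to the 5 genes with an entry whose groups differed most in log2 change, and they show how differently the letters are arranged: a palindrome with further matches in ANKRD37 and BNIP3, single in EGLN1 and not present in the EGLN3 window. Matches are in capitals and each stretch is written along the gene's strand. ANKRD37 (chr4:185396673-185396702, plus strand) and EGLN1 (chr1:231422288-231422317, minus strand) are shown for 30 bases only, since GENCODE 29 places exons there. MXI1 (chr10:110209981-110210230, plus strand, its second start site) lies inside the annotated gene and outside its exons, as does EGLN3 (chr14:33951082-33951324, minus strand), and BNIP3 (chr10:131982014-131982173, minus strand) lies just upstream of the annotated gene.
ANKRD37: gggctcCACGTGccagtgtttgtgtACGTG
EGLN1: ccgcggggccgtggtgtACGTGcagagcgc
MXI1: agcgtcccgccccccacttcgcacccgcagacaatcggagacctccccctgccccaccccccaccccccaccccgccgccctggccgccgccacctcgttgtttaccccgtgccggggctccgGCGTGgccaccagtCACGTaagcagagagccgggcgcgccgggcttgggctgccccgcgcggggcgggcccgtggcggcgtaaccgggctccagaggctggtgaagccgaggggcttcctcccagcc
BNIP3: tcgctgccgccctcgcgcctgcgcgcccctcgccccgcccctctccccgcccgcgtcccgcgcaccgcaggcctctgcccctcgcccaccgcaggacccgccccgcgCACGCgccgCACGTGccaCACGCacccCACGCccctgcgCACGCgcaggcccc
EGLN3: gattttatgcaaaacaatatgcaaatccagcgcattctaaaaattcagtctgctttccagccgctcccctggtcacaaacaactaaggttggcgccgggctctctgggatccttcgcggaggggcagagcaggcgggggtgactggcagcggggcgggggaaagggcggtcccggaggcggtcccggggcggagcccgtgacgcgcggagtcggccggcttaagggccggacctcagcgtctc
ANKRD37 held a CACGTG, which reads ACGTG on both strands, 162 bases before its start and a further ACGTG 143 bases before it. BNIP3 held 4 GCGTG matches on the opposite strand around 1 CACGTG, all between 143 and 104 bases before its start. The MXI1 stretch held a GCGTG and, on the opposite strand, an ACGTG. CA12 and ADM held 1 GCGTG each, 234 and 101 bases before their starts. A match describes letters and not binding, and no match in EGLN3 says only that these letters are not in this window.

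**Figure D1:**
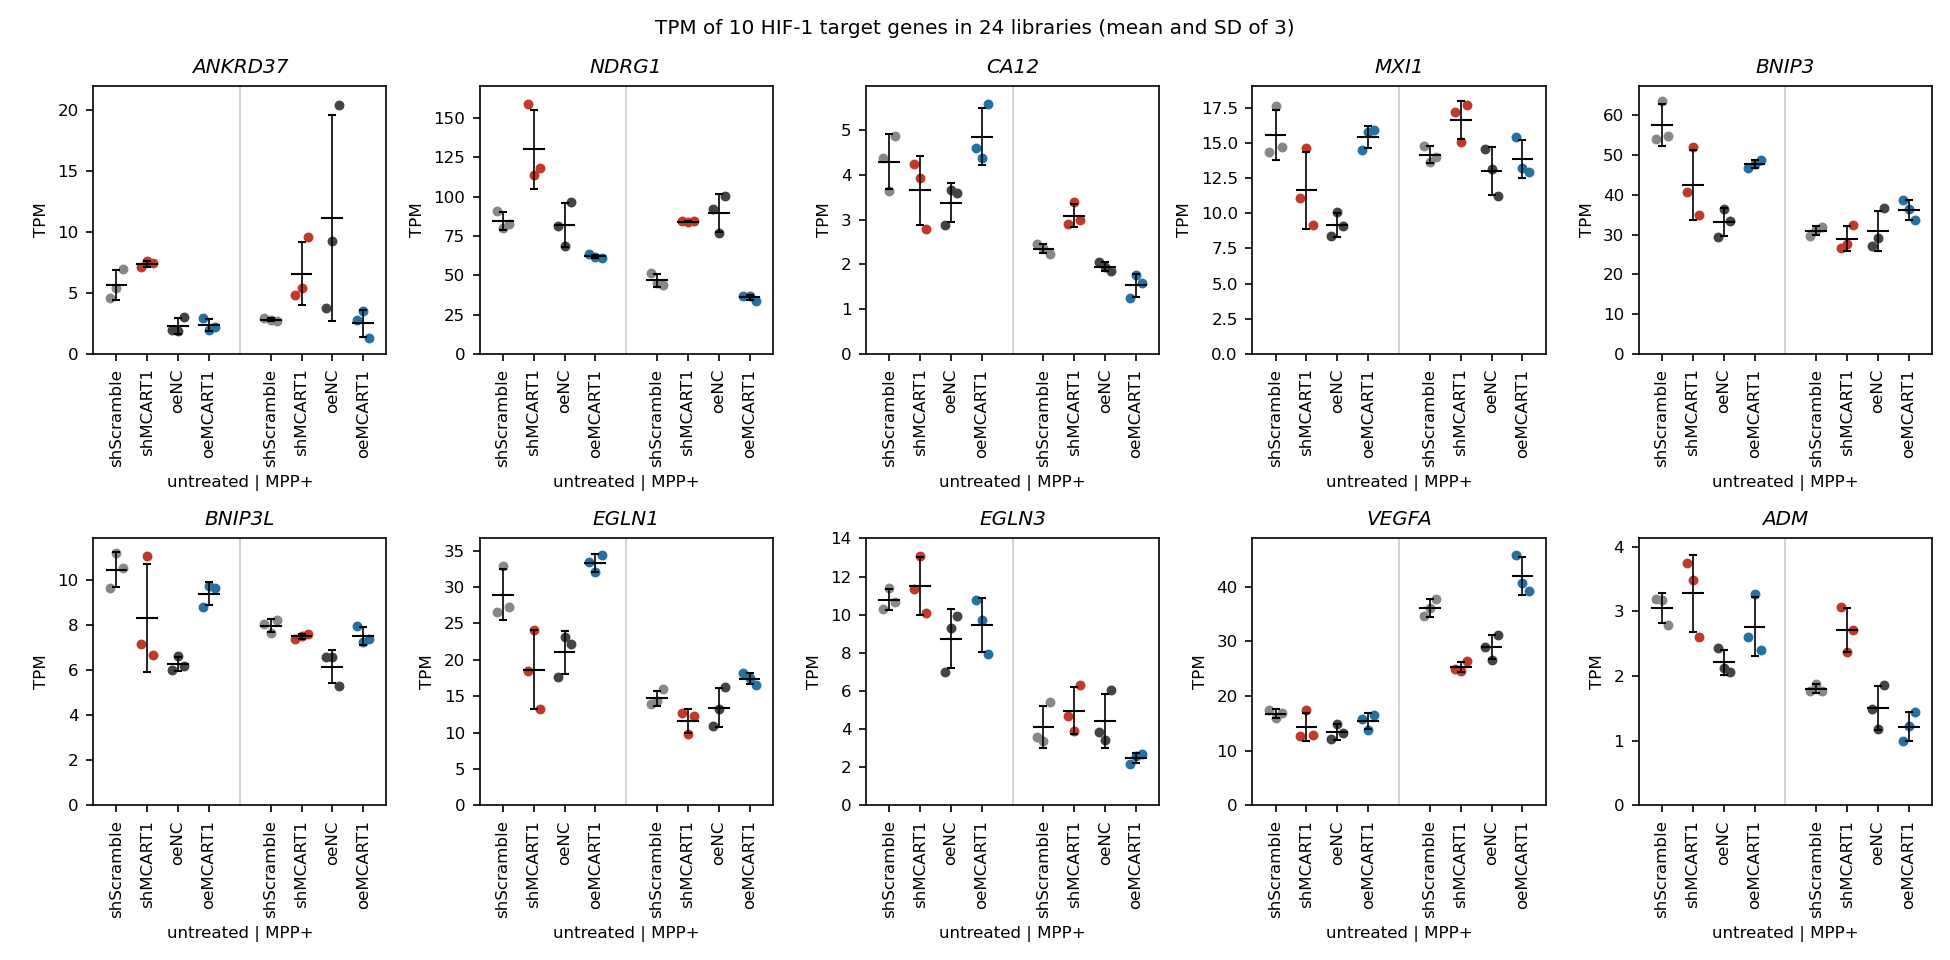
Each panel shows the TPM of 1 gene in the 24 libraries, with the 4 constructs untreated on the left and with MPP+ on the right; points are libraries, bars the mean and SD of 3. NDRG1 was lowest in oeMCART1 with MPP+ (33.9 to 37.0 TPM), while VEGFA was highest there (39.2 to 45.8 TPM).

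NDRG1, a stress-induced protein linked to growth arrest and differentiation, was higher with MCART1 knockdown and lower with overexpression in both tables. Its TPM in the 3 untreated shMCART1 libraries was 159, 114 and 118, against 91.0, 80.2 and 82.4 in shScramble. With MPP+ it was 84.5, 83.7 and 84.3 in shMCART1, against 51.4, 45.3 and 43.9 in shScramble. No shMCART1 library overlapped its control. In oeMCART1, the untreated values were 63.4, 61.6 and 61.0 TPM against 81.2, 68.8 and 96.4 in oeNC. With MPP+ they were 37.0, 36.8 and 33.9 TPM, against 92.3, 76.7 and 100.6 in oeNC. Again no library overlapped. NDRG1 rose with knockdown by 0.60 ± 0.14 (SE) untreated and 0.83 ± 0.09 with MPP+ on the log2(TPM + 1) scale (limma adjusted p = 0.0156 and 0.000123). It fell with overexpression by 0.39 ± 0.14 untreated and by 1.29 ± 0.09 with MPP+ (limma adjusted p = 0.036 and 8.35e-07). The means with MPP+ were 35.9 TPM in oeMCART1, 46.9 in shScramble and 89.8 in oeNC, which stood above shScramble by 0.92 ± 0.09. The part of this high control in the fall with MPP+ was not tested. The untreated rise did not pass without shScramble replicate 2 or in a fit of only the 2 groups. The untreated fall did not pass when any library of the pair but oeNC replicate 2 was left out, with no filter on low values, or after removal of each library's trend of log2 values on transcript GC content. The summed mesenchymal markers also stood highest in shMCART1 (33.6 to 38.7 TPM untreated, 23.3 to 23.8 with MPP+) and, with MPP+, lowest in oeMCART1 (8.61 to 9.94 TPM against 16.3 to 19.6 in oeNC), and their part in the NDRG1 result was not tested.

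ANKRD37, a small ankyrin-repeat protein known as a direct HIF-1 target, spread widely with MPP+ in every group but shScramble, and most in oeNC. In oeNC with MPP+ it was at 3.80, 9.29 and 20.4 TPM, and in oeMCART1 with MPP+ at 2.78, 3.49 and 1.29. In shMCART1 with MPP+ it was at 4.84, 5.37 and 9.57 TPM and in shScramble with MPP+ at 2.91, 2.81 and 2.69. Groups did not overlap in either pair, but within oeNC the highest library was 5.36 times the lowest. ANKRD37 fell with overexpression under MPP+ by 1.59 ± 0.44 (SE, log2 scale, limma adjusted p = 0.00755), and by 1.05 without oeNC MPP+ replicate 3. The mean TPM with MPP+ was 2.52 in oeMCART1, 2.80 in shScramble and 11.2 in oeNC, which stood above shScramble by 1.42 ± 0.44. The part of this high control in the fall was not tested. With knockdown under MPP+ the log2 change of ANKRD37 was 0.95 ± 0.44 (limma adjusted p = 0.117), which passed only in a fit of the 2 groups alone (adjusted p = 0.0136). Untreated it stood at 4.55, 5.39 and 6.99 TPM in shScramble and 7.10, 7.58 and 7.43 in shMCART1 (log2 change 0.35 ± 0.17, limma adjusted p = 0.128). This change came to 0.52 under median-of-ratios scaling, 0.61 under quantile normalization and 0.84 after GC trend removal, and passed in all 3 (limma adjusted p = 0.037, 0.0276 and 0.0331). It was at 1.99, 1.88 and 3.07 TPM in untreated oeNC and at 2.91, 1.95 and 2.22 in oeMCART1, which overlapped.

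VEGFA, the main angiogenic growth factor, changed in the opposite direction to NDRG1 with MPP+. Its TPM was 25.02, 24.5 and 26.3 in shMCART1 with MPP+ against 34.5, 36.0 and 37.7 in shScramble, and 45.8, 40.6 and 39.2 in oeMCART1 against 29.03, 26.6 and 31.1 in oeNC. No library overlapped in either pair. VEGFA fell with knockdown by 0.50 ± 0.07 and rose with overexpression by 0.52 ± 0.07 (SE, log2 scale, limma adjusted p = 0.000621 and 8.04e-05). The rise was smaller, 0.21, under median-of-ratios scaling. Untreated, all 4 groups lay between 12.1 and 17.5 TPM and the log2 changes were -0.23 ± 0.13 and 0.18 ± 0.13, neither of which passed (limma adjusted p = 0.175 and 0.257); without shMCART1 replicate 2 the first came to -0.36 and passed (adjusted p = 0.0221). ADM, which encodes the vasodilator peptide adrenomedullin, was at 3.06, 2.37 and 2.71 TPM in shMCART1 with MPP+ against 1.77, 1.88 and 1.77 in shScramble. It rose there by 0.40 ± 0.13 (limma adjusted p = 0.0364), a call that ended when any library of these groups but shMCART1 MPP+ replicate 2 was left out, with a pseudocount of 0.1, with no filter on low values and after GC trend removal (0.34). Its other changes did not pass on the deposited scale. With MPP+ its overexpression value of -0.17 came to -0.36 under median-of-ratios scaling and -0.38 under quantile normalization, and passed in both (limma adjusted p = 0.0417 and 0.04).

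EGLN1 and EGLN3 encode prolyl hydroxylases, are themselves HIF-1 targets and close the feedback loop. EGLN1 (PHD2), the main hydroxylase of HIF1A, was at 18.5, 24.2 and 13.3 TPM in untreated shMCART1 against 26.5, 33.0 and 27.3 in shScramble. It was at 33.5, 32.04 and 34.4 TPM in oeMCART1 against 17.7, 23.2 and 22.2 in oeNC, so that neither pair overlapped. EGLN1 fell with knockdown by 0.64 ± 0.18 and rose with overexpression by 0.65 ± 0.18 (SE, log2 scale, limma adjusted p = 0.0231 and 0.0127). With MPP+ it rose with overexpression by 0.37 ± 0.13 (limma adjusted p = 0.0263) and had a log2 change of -0.32 ± 0.13 with knockdown that did not pass (adjusted p = 0.077). After removal of each library's GC trend none of these passed, and the MPP+ overexpression value turned to -0.098. That value was 0.072 under median-of-ratios scaling and 0.069 under quantile normalization, neither of which passed, and its call also ended with no filter and without oeNC MPP+ replicate 1 or 2 or oeMCART1 MPP+ replicate 1 or 2. The untreated fall did not pass with no filter, in a fit of only the 2 groups, or without shScramble replicate 2 or shMCART1 replicate 1 or 3, and the untreated rise did not pass without oeNC replicate 1. EGLN3 (PHD3), the most strongly hypoxia-induced of the hydroxylases in many cells, changed in 1 comparison: it was at 2.18, 2.58 and 2.72 TPM in oeMCART1 with MPP+ against 3.83, 3.43 and 6.05 in oeNC. It fell by 0.61 ± 0.20 (limma adjusted p = 0.0207), and by 0.41 on the log2 scale without oeNC MPP+ replicate 3, which did not pass (adjusted p = 0.0919). The call also ended without oeMCART1 MPP+ replicate 1 and with no filter. Both genes have 1 named pseudogene, so some of their reads may be uncertain.

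BNIP3 and BNIP3L, mitochondrial outer membrane proteins that serve as mitophagy receptors, and MXI1, an antagonist of MYC, went together in the untreated libraries. BNIP3 was at 40.6, 52.0 and 34.9 TPM in shMCART1, 54.0, 63.5 and 54.8 in shScramble, 29.5, 36.5 and 33.5 in oeNC and 46.8, 47.8 and 48.9 in oeMCART1. MXI1 was at 11.1, 14.6 and 9.17 TPM in shMCART1, 14.3, 17.6 and 14.7 in shScramble, 8.39, 10.1 and 9.07 in oeNC and 14.5, 15.8 and 15.9 in oeMCART1. BNIP3L was at 7.19, 11.1 and 6.67 TPM in shMCART1, 9.66, 11.2 and 10.6 in shScramble, 6.01, 6.64 and 6.18 in oeNC and 8.83, 9.75 and 9.65 in oeMCART1. For all 3 genes oeNC had the lowest mean and did not overlap oeMCART1. Over the 12 untreated libraries the log2 values of BNIP3, BNIP3L and MXI1 correlated pairwise with Pearson's r of 0.954 to 0.966, and over the 12 treated libraries with r of -0.405 to 0.605; the libraries of a table share groups and processing. With overexpression BNIP3 rose by 0.52 ± 0.13, BNIP3L by 0.52 ± 0.15 and MXI1 by 0.69 ± 0.15 (SE, log2 scale, limma adjusted p = 0.00958, 0.0168 and 0.00565). BNIP3 kept its call under every setting run, whereas after GC trend removal MXI1 (0.18) did not pass and BNIP3L turned to -0.19. BNIP3L also did not pass under quantile normalization (0.22) or without oeMCART1 replicate 2 or 3 or oeNC replicate 1 or 3. With knockdown BNIP3 fell by 0.44 ± 0.13 (limma adjusted p = 0.0283), and MXI1 fell by 0.41 ± 0.15 at the edge of the threshold (adjusted p = 0.05, with groups that overlapped). This BNIP3 call ended with no filter, in a fit of only the 2 groups, and without shScramble replicate 2 or shMCART1 replicate 1 or 3. The MXI1 call was lost under median-of-ratios scaling, quantile normalization and GC trend removal, with a pseudocount of 0.1, with no filter, in a fit of only the 2 groups, and when any library of the pair but shMCART1 replicate 2 was left out. With MPP+, BNIP3L rose with overexpression by 0.26 ± 0.08 (limma adjusted p = 0.0207), a value that turned to -0.021 under median-of-ratios scaling, -0.068 under quantile normalization and -0.40 after GC trend removal. The last of these passed, as lower (limma adjusted p = 0.000457). The higher call also ended in a fit of only the 2 groups and without oeNC MPP+ replicate 3 or oeMCART1 MPP+ replicate 1. In knockdown with MPP+ BNIP3L passed as higher after GC trend removal (0.22, limma adjusted p = 0.0264). BNIP3 and MXI1 did not pass with MPP+, but BNIP3 passed in overexpression without oeNC MPP+ replicate 3 (0.35), and MXI1 passed in knockdown under median-of-ratios scaling (0.32), quantile normalization (0.32) and GC trend removal (0.41) and turned to -0.40 in overexpression after GC trend removal (limma adjusted p = 0.00174). BNIP3 has 39 named pseudogenes, and exons of other genes overlap those of ANKRD37, MXI1, BNIP3L and VEGFA on the opposite strand, so that reads of these genes may be shared.

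CA12, a carbonic anhydrase of the cell surface that works in pH control, rose with overexpression in untreated libraries, where it was at 4.59, 4.38 and 5.59 TPM in oeMCART1 and 2.87, 3.67 and 3.59 in oeNC. The rise was 0.42 ± 0.15 (SE, log2 scale, limma adjusted p = 0.0429) and did not pass under 10 of the 13 other settings run. With MPP+ it was at 1.26, 1.77 and 1.58 TPM in oeMCART1 against 2.06, 1.94 and 1.85 in oeNC, without overlap, and the log2 change of -0.22 ± 0.11 did not pass (adjusted p = 0.0931). That change came to -0.43 under median-of-ratios scaling, -0.46 under quantile normalization and -0.42 after GC trend removal, and passed in all 3 (limma adjusted p = 0.00522, 0.00363 and 0.00684). In knockdown with MPP+ CA12 passed under the same 3 settings only, at 0.36, 0.38 and 0.33.

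**Figure D2:**
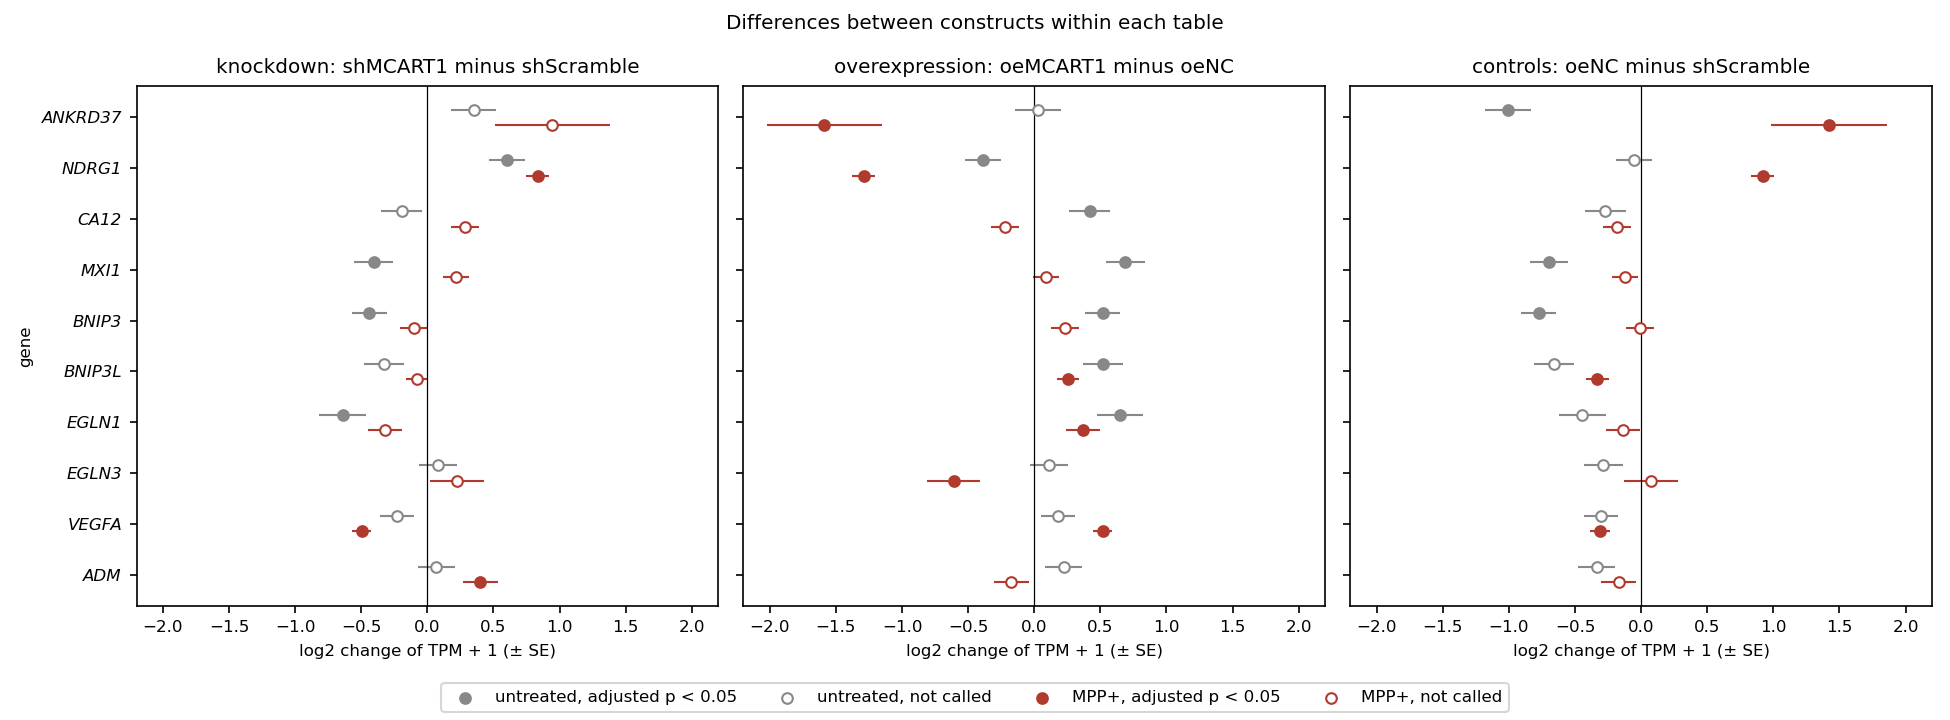
Log2 changes of TPM + 1 with their SE for the 10 genes in knockdown, overexpression and between the 2 control constructs, untreated (grey) and with MPP+ (red); filled points passed limma's adjusted p under 0.05. NDRG1 stood on the right with knockdown and on the left with overexpression, and VEGFA the other way round with MPP+.

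Counted together, untreated knockdown called 1 of the 10 genes higher (NDRG1) and 3 lower (MXI1, BNIP3, EGLN1), where 8.64% of all 14703 genes tested were called higher and 25.6% lower. The median log2 change of the 10 was -0.21, beside -0.15 over all genes. These calls were not kept in other fits: a fit of only the 2 groups called 0 genes (5803 at an unadjusted p under 0.05), and leaving out shScramble replicate 2 left 2 genes called, none of the 10. Without shMCART1 replicate 1 or replicate 3 the 3 lower calls also ended. Untreated overexpression called 5 higher and 1 lower (background 33.5% and 14.7%), with a median of 0.32 beside 0.16. Knockdown with MPP+ called 2 higher and 1 lower (background 10.8% and 22.2% of 14895 genes), with a median of 0.22 beside -0.08. Overexpression with MPP+ called 3 higher and 3 lower (background 46.7% and 14.2%), with a median of -0.04 beside 0.26.

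Scaling bears on these counts. Under median-of-ratios scaling the all-gene medians came to between -0.04 and 0.01 in place of -0.25 to 0.26, and calls over all genes moved to 2903 higher and 2999 lower from 1271 and 3764 (untreated knockdown), 3952 and 3687 from 4927 and 2155 (untreated overexpression), 2554 and 2281 from 1616 and 3308 (knockdown with MPP+), 4066 and 4237 from 6949 and 2118 (overexpression with MPP+), 99 and 95 from 29 and 160 (untreated controls), 3125 and 2653 from 764 and 6370 (controls with MPP+) and 979 and 1343 from 1909 and 796 (overexpression difference). Among the 10 genes the same scaling called 1 higher and 5 lower for overexpression with MPP+ and 4 higher and 1 lower for knockdown with MPP+. Relative to the all-gene median of the deposited scale, overexpression with MPP+ stood at -1.84 for ANKRD37, -1.55 for NDRG1, -0.87 for EGLN3 and 0.26 for VEGFA.

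The 2 control constructs differed in several of these genes; this comparison uses the same control libraries as the comparisons above. Untreated, oeNC was lower than shScramble in ANKRD37, MXI1 and BNIP3 by log2 changes of -1.01 ± 0.17, -0.70 ± 0.15 and -0.78 ± 0.13 (limma adjusted p = 0.0259, 0.045 and 0.0252), so 3 of 10 were called lower where 1.09% of all genes were and 0 higher where 0.197% were. With MPP+, oeNC was higher in ANKRD37 (1.42 ± 0.44) and NDRG1 (0.92 ± 0.09) and lower in BNIP3L (-0.33 ± 0.08) and VEGFA (-0.31 ± 0.07), with limma adjusted p of 0.0186, 6.76e-05, 0.00738 and 0.00451 and a background of 5.13% higher and 42.8% lower. NDRG1 kept its call under every setting run, ANKRD37 did not pass without oeNC MPP+ replicate 3 (0.89), without shScramble MPP+ replicate 3 or with no filter, and BNIP3L and VEGFA did not pass under median-of-ratios scaling (-0.066 and -0.016), quantile normalization or GC trend removal. The untreated calls ended with no filter and when most single libraries of the pair were left out. ANKRD37 also lost its untreated call under quantile normalization, after GC trend removal and in a fit of only the 2 groups (limma adjusted p = 0.0575, 0.0856 and 0.0651). MXI1 lost its untreated call under quantile normalization and in that fit (limma adjusted p = 0.0506 and 0.0641). SLC25A51 too was higher in untreated oeNC than in shScramble (log2 change 1.44, limma adjusted p = 0.00203).

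The effect of overexpression differed with MPP+ in 4 of the 10 genes, all toward lower values, where 5.87% of 13571 genes were called lower and 14.1% higher. Each effect was taken within its table, but treatment and table cannot be told apart, so a difference may belong to either. The difference was -1.62 ± 0.50 for ANKRD37, -0.90 ± 0.17 for NDRG1, -0.64 ± 0.18 for CA12 and -0.60 ± 0.18 for MXI1 (SE, log2 scale, limma adjusted p = 0.0261, 0.000812, 0.0167 and 0.023). On the same scale, oeNC minus shScramble went from -1.01 untreated to 1.42 with MPP+ for ANKRD37 and from -0.05 to 0.92 for NDRG1. For MXI1 it went from -0.70 to -0.12 and for CA12 from -0.27 to -0.19. The part of this control shift in the differences was not tested. EGLN3 was close to the threshold (-0.72 ± 0.26, adjusted p = 0.0543). It passed with a filter of 5 TPM, a pseudocount of 0.1, median-of-ratios scaling (-0.80), quantile normalization, GC trend removal (-0.78), the replicate block (adjusted p = 0.0114), and without oeMCART1 replicate 3 or oeNC MPP+ replicate 2. BNIP3 passed under median-of-ratios scaling (-0.40) and ADM after GC trend removal (-0.56). NDRG1 kept this call under every setting run, ANKRD37 came to -1.08 (adjusted p = 0.0642) without oeNC MPP+ replicate 3 and also did not pass without oeNC replicate 1 or 2, oeMCART1 replicate 1 or oeMCART1 MPP+ replicate 3, with no filter, or in a fit of only the groups compared. CA12 did not pass without oeMCART1 replicate 3, and MXI1 did not pass without oeNC replicate 1, oeNC MPP+ replicate 1, or oeMCART1 MPP+ replicate 2 or 3. The effect of knockdown differed with MPP+ in 0 of 10 by limma, with CA12 and MXI1 at an unadjusted p under 0.05, where 2.02% of genes were called higher and 2.48% lower. The largest of these was MXI1 (0.62 ± 0.18, adjusted p = 0.0534), which passed after GC trend removal, under quantile normalization, under median-of-ratios scaling, with the replicate block, with a filter of 5 TPM, and without shMCART1 replicate 2.

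Levels with and without MPP+ stand in separate tables with different entries, so treatment and table cannot be told apart and no test was made. Set side by side, VEGFA had higher TPM with MPP+ in all 4 constructs, with ratios of mean TPM of 2.15 (shScramble), 1.76 (shMCART1), 2.16 (oeNC) and 2.73 (oeMCART1), and EGLN1 (0.508 to 0.639) and EGLN3 (0.263 to 0.508) had lower TPM in all 4. On the deposited scale the ranges of 3 libraries did not overlap in any of these 12 pairs, while under median-of-ratios scaling those of EGLN1 overlapped in oeNC (ratio 0.751). NDRG1 was lower with MPP+ in shScramble (0.554), shMCART1 (0.646) and oeMCART1 (0.579), and its ranges overlapped in oeNC (1.09). ANKRD37 ran from 0.497 in shScramble to 4.82 in oeNC. Of the 10 genes, 8, 4, 4 and 7 lay wholly lower with MPP+ and 1, 2, 3 and 1 wholly higher in shScramble, shMCART1, oeNC and oeMCART1, where 39.9%, 26.7%, 40.5% and 44.2% of all genes lay wholly lower and 20.7%, 22.4%, 18.7% and 24.7% wholly higher.

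**Figure D3:**
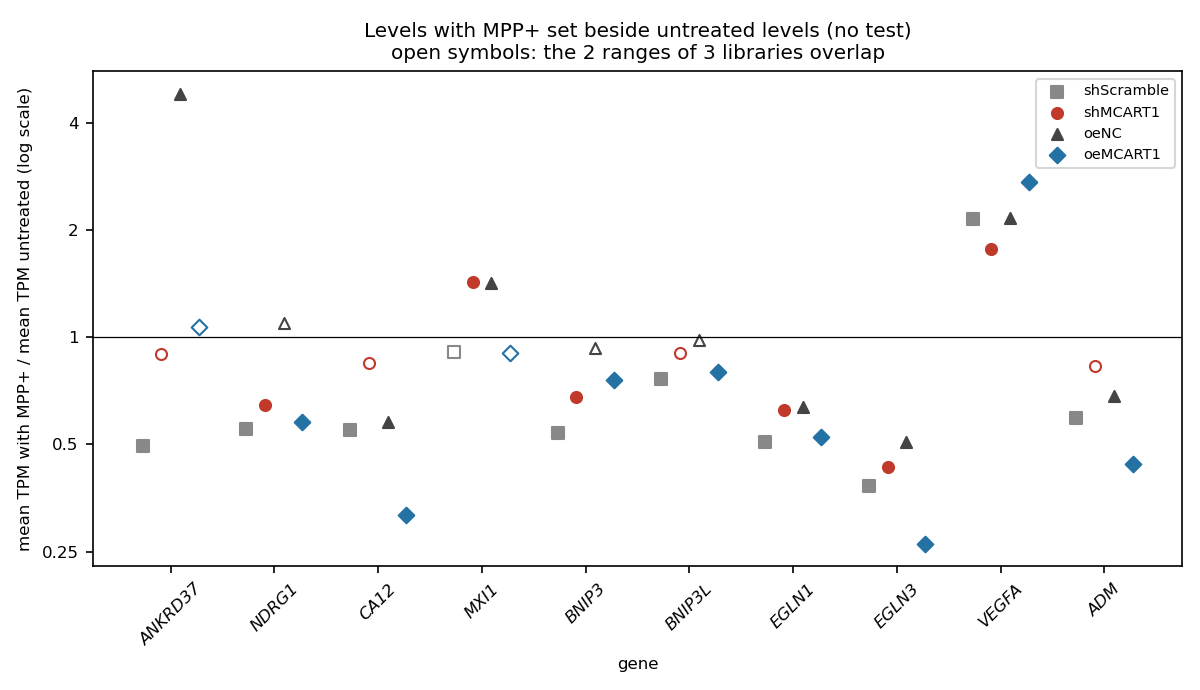
Ratio of mean TPM with MPP+ to mean TPM untreated (log axis) for each gene and construct; filled symbols mark pairs whose 3 libraries did not overlap. VEGFA lies above 1 and EGLN1 and EGLN3 below 1 in all 4 constructs, while ANKRD37 runs from 0.497 to 4.82.

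Among the HIF subunits and regulators, HIF1A mRNA was lower with MCART1 knockdown and higher with overexpression in both tables. It was 7.65 ± 2.50 TPM (SD, n = 3) in untreated shMCART1 against 14.4 ± 1.26 in shScramble, and 19.8 ± 1.81 in oeMCART1 against 9.64 ± 2.53 in oeNC. It fell with knockdown by 0.87 untreated and 0.49 with MPP+ and rose with overexpression by 0.99 and 1.16 (log2 scale, limma adjusted p = 0.0185, 0.0229, 0.00608 and 3.21e-05). It was also lower in oeNC than in shScramble with MPP+ (-1.02, adjusted p = 0.000253). VHL fell with knockdown by 0.49 and by 0.76 with MPP+ (limma adjusted p = 0.0333 and 2.92e-05) and rose with overexpression under MPP+ by 0.47 (adjusted p = 4.9e-05). With MPP+ VHL stood at 45.7 to 47.7 TPM in oeMCART1, 32.4 to 34.0 in oeNC and 46.2 to 51.0 in shScramble. HIF1A stood at 8.28 to 10.4, 2.74 to 4.05 and 7.97 to 8.63 TPM in the same groups. The part of the low oeNC control in these rises with MPP+ was not tested. EPAS1, the alpha subunit of HIF-2, fell with overexpression under MPP+ by 0.68 (adjusted p = 0.000822), from 3.44 ± 0.34 to 1.76 ± 0.15 TPM. ARNT did not pass in the 4 knockdown and overexpression comparisons and lay between 18.02 and 28.9 TPM as group means. Of the 16 measured of 17 listed regulators, 2 were higher and 4 lower in untreated knockdown (8.64% and 25.6% of all genes) and 6 and 2 in untreated overexpression (33.5% and 14.7%). With MPP+ they were 2 and 5 in knockdown (10.8% and 22.2% of all genes) and 10 and 2 in overexpression (46.7% and 14.2%). CUL2, a scaffold of the VHL ligase, was among the largest in all 4 (-0.76, 1.07, -0.65 and 1.07). The regulators were reported under the main setting only, so their dependence on scaling, GC content or single libraries is not known. In untreated knockdown a fit of only the 2 groups called 0 genes, so the HIF1A and VHL calls ended there. Without shScramble replicate 2 that comparison called 2 of all genes.

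A further 26 HIF-1 targets outside glycolysis were listed for context and 23 were measured. In overexpression with MPP+ 11 were called higher and 5 lower, where 46.7% and 14.2% of all genes were, the lower ones led by HILPDA, a lipid droplet protein (-1.31), BHLHE40, a circadian repressor (-1.28), and DDIT4, an inhibitor of mTORC1 (-0.82). Those called higher were led by WSB1 (1.23), TFRC, the transferrin receptor (0.98), and PLOD2, a collagen lysyl hydroxylase (0.84). In knockdown with MPP+ 3 were higher, led by BHLHE40 (1.12), and 3 lower, led by WSB1 (-1.18), beside 10.8% and 22.2% of all genes. Untreated knockdown gave 4 higher (DDIT4 0.57, HMOX1 0.48, HILPDA 0.47 the largest) and 4 lower (PLOD2 -0.85, P4HA1 -0.75, ERO1A -0.74), beside 8.64% and 25.6% of all genes, and untreated overexpression 12 higher and 2 lower, beside 33.5% and 14.7%. The overexpression effect differed with MPP+ for BHLHE40 (-1.63), HILPDA (-1.11) and INSIG2 (-1.04) among 4 lower, and for 2 higher, where 5.87% of all genes were lower and 14.1% higher. The glycolytic targets, 20 measured of 21, were called higher 8 times and lower 1 time in untreated knockdown, 2 and 11 in untreated overexpression, 7 and 0 in knockdown with MPP+, and 2 and 13 in overexpression with MPP+, where SLC2A3 (-1.45) and PFKFB4 (-0.84) fell most. The all-gene shares, higher and lower, were 8.64% and 25.6%, 33.5% and 14.7%, 10.8% and 22.2%, and 46.7% and 14.2% in the same order. Both lists were counted under the main setting only. After GC trend removal, calls over all genes came to 1454 from 5035 in untreated knockdown and 2572 from 7082 in untreated overexpression. With MPP+ they came to 3967 from 4924 in knockdown and 6703 from 9067 in overexpression. A fit of only the 2 groups called 0 genes in untreated knockdown.

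**Figure D4:**
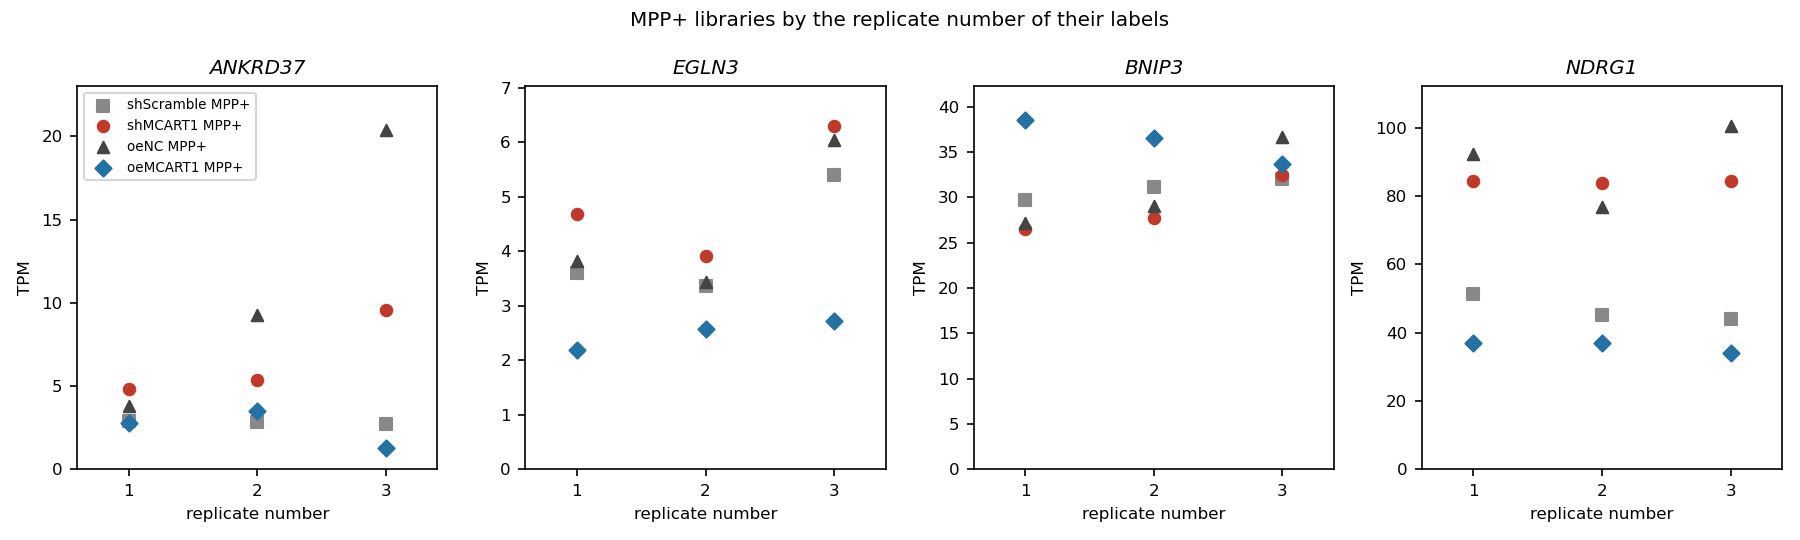
TPM of ANKRD37, EGLN3, BNIP3 and NDRG1 in the 12 MPP+ libraries, by the replicate number of their labels, with 1 symbol per construct. In EGLN3 replicate 3 was the highest library of all 4 groups, and in ANKRD37 oeNC replicate 3 (20.4 TPM) stood apart.

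Within groups, the MPP+ libraries of EGLN3 were highest in replicate 3 in all 4 groups (5.40, 6.31, 6.05 and 2.72 TPM in shScramble, shMCART1, oeNC and oeMCART1), a pattern seen after the values were known. BNIP3 was highest in replicate 3 in 3 of the 4 (32.02, 32.5 and 36.7 TPM) and lowest there in oeMCART1 (33.6 TPM). NDRG1 was highest in replicate 1 in 3 of the 4 (51.4, 84.5 and 37.0 TPM) and in replicate 3 in oeNC (100.6 TPM). In the untreated shMCART1 group, replicate 2 was the highest library of ANKRD37, MXI1, BNIP3, BNIP3L, EGLN1, EGLN3 and VEGFA, and without it 5 of the 10 genes were called lower in untreated knockdown, as were 5308 of all 14703 genes in place of 3764.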

How the data were processed

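RNA of 24 libraries (8 groups of 3) was analysed from 2 tables of TPM that the authors deposited, 1 for the 12 untreated and 1 for the 12 MPP+ libraries, with values given to 2 decimals. Not given in the sources used here are the aligner, the annotation and any use of the strand in counting. Builds named in the submitters' processing notes are GRCm38, mm10 and GRCh38, with no role stated. Depth is unknown from TPM, so counting intervals cannot be had; 13022 to 14306 genes reached 1 TPM per library. Of 63266 and 36783 lines, 25 and 42 without an identifier were left out, and 31524 identifiers stood in both tables (85.8% of the smaller one). Groups came from the labels.

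Within a table, limma 3.58.1 (R 4.3.3) with a trended variance prior was fitted to log2(TPM + 1) of every gene that reached 1 TPM in 3 or more libraries. Each fit held the 12 libraries of its table, and differences between effects were fitted over all 24. Genes were called at a Benjamini-Hochberg adjusted p under 0.05 over all genes. A fold change on this scale understates that of low genes. The script was also tested on simulated data, in which the changed genes were known. Symbols and GC content came from the reference tables and GENCODE 29, promoter sequences from RefSeq (GRCh38.p14), and both may differ from the authors' annotation. Tables and plots used python 3.11.15, pandas 2.3.3, numpy 2.4.6 and matplotlib 3.10.9.

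The 10 genes, the lists and the tests were chosen with earlier results of these data known. Named were the 10 genes in every comparison, SLC25A51, HIF1A, EPAS1, ARNT and VHL, up to 3 called genes per direction of the 2 context lists (2 for glycolysis) with the largest change, and the 5 genes most like the mean z-score of the 10. Markers and CUL2's values in all comparisons are also given. Some neuroblastoma markers are not reported here. Alternatives were quantile and median-of-ratios scaling, removing the GC trend of each library (natural spline, 5 degrees of freedom), a replicate block, fits restricted to the compared groups, leaving out each library, a pseudocount of 0.1, and filtering at 5 TPM or not at all.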

Additional observations from a re-analysis of the deposited data

Results flagged for a closer look

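In 4 of the 10 genes the effect of MCART1 overexpression on the log2(TPM + 1) scale differed with and without MPP+, by a limma test of the difference itself over 24 libraries. Of all 13571 genes tested, 5.87% were called lower and 14.1% higher. MPP+ and untreated libraries stand in separate tables, so treatment and table cannot be told apart here either. The difference was -1.62 for ANKRD37, whose overexpression effect was 0.03 untreated and -1.59 with MPP+. For NDRG1 it was -0.90, with a fall in both tables (-0.39 and -1.29). For CA12 it was -0.64, from 0.42 untreated to -0.22 with MPP+, and for MXI1 -0.60, from 0.69 to 0.09. The control oeNC moved against shScramble too, from -1.01 untreated to 1.42 with MPP+ for ANKRD37 and from -0.05 to 0.92 for NDRG1. For MXI1 it moved from -0.70 to -0.12 and for CA12 from -0.27 to -0.19. The part of this shift in the 4 results was not tested. The control group oeNC with MPP+ held the highest ANKRD37 library of all 24 (20.4 TPM), and without it the ANKRD37 difference was -1.08 and did not pass. That difference also did not pass without oeNC replicate 1 or 2, oeMCART1 replicate 1 or oeMCART1 MPP+ replicate 3, with no filter on low values, or in a fit of only the groups compared (limma adjusted p of 0.0508 to 0.0812 over these settings).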

How the results depend on the processing

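Of the calls, those of NDRG1 and VEGFA in both MPP+ comparisons, ANKRD37 in MPP+ overexpression, BNIP3 in untreated overexpression, and NDRG1 in the MPP+ controls and the overexpression difference passed under every setting run. Other values follow by setting (log2 changes, or numbers of the 10 genes or of all genes called by limma). After removal of the GC trend, untreated knockdown called 2 higher, 1 lower and 1454 genes, with MXI1 at 0.0007951, BNIP3L at 0.27 and ADM at -0.11 turning sign; untreated overexpression called 1 higher, 0 lower and 2572 genes, with ANKRD37 at -0.57, BNIP3L at -0.19 and EGLN3 at -0.051; MPP+ knockdown called 4 higher, with BNIP3L at 0.22; MPP+ overexpression called 1 higher and 6 lower, with MXI1 at -0.40, BNIP3L at -0.40 and EGLN1 at -0.098; the untreated controls called 1055 genes, with NDRG1 at 0.053; the MPP+ controls called 0 lower and 3347 genes, with CA12 at 0.043, MXI1 at 0.31, BNIP3 at 0.19, BNIP3L at 0.19 and EGLN1 at 0.28; and the knockdown difference called 1 higher and 1079 genes, with BNIP3L at -0.061. Over all genes, the GC-removed fits called 597 higher and 857 lower of 14157 in untreated knockdown and 1317 and 1255 in untreated overexpression. They called 1901 and 2066 of 13923 in MPP+ knockdown, 3648 and 3055 in MPP+ overexpression and 1817 and 1530 in the MPP+ controls. The knockdown difference gave 475 and 604 of 13151. Under median-of-ratios scaling, untreated knockdown called 2 higher, untreated overexpression gave ANKRD37 -0.12, EGLN3 -0.080 and VEGFA -0.015, MPP+ knockdown called 4 higher (BNIP3 0.0027, BNIP3L 0.015), MPP+ overexpression called 1 higher and 5 lower (MXI1 -0.21, BNIP3 -0.078, BNIP3L -0.021), the untreated controls gave NDRG1 0.16, the MPP+ controls called 0 lower (CA12 0.022, MXI1 0.16, BNIP3 0.28, EGLN1 0.15, ADM 0.019), the knockdown difference called 1 higher, and 2 genes lay wholly lower with MPP+ in oeNC. Of all genes, 28.8% lay wholly lower there, and the knockdown difference called 260 higher and 463 lower. Under quantile normalization, untreated knockdown called 2 higher (CA12 0.063), untreated overexpression 3 higher (ANKRD37 -0.21, EGLN3 -0.19, VEGFA -0.057, ADM -0.020), MPP+ knockdown 4 higher (BNIP3L 0.050), MPP+ overexpression 1 higher and 5 lower (MXI1 -0.21, BNIP3 -0.036, BNIP3L -0.068), the untreated controls 1 lower (NDRG1 0.038), the MPP+ controls 0 lower (CA12 0.13, MXI1 0.17, BNIP3 0.19, BNIP3L 0.0019, EGLN1 0.15, ADM 0.12), and the knockdown difference 1 higher and 1 lower. Over all genes this normalization called 2586 higher and 2900 lower in untreated knockdown and 3711 and 4014 in untreated overexpression. With MPP+ it called 2373 and 2479 in knockdown and 4147 and 3930 in overexpression. It called 115 and 90 in the untreated controls, 2459 and 2478 in the MPP+ controls and 353 and 534 in the knockdown difference. With no filter, untreated knockdown called 0 lower and 1272 genes, untreated overexpression 0 lower, MPP+ knockdown 1 higher, the untreated controls 0 lower and 60 genes, and the MPP+ controls 1 higher. Of all genes unfiltered, 272 were higher and 1000 lower of 32421 in untreated knockdown, and 3967 and 1655 in untreated overexpression. MPP+ knockdown gave 1304 and 2578 of 34266 and the MPP+ controls 601 and 5639. The untreated controls gave 17 and 43 of 32421. With a filter of 5 TPM, MPP+ knockdown and the knockdown difference each called 1 higher, and with a pseudocount of 0.1 MPP+ knockdown called 1 higher. All-gene calls, higher and lower, were 1418 and 2806 of 9641 and 257 and 364 of 9018 at 5 TPM. With the pseudocount they were 1544 and 3256 of 14895. A fit of only the groups compared called 0 genes in untreated knockdown (5803 at an unadjusted p under 0.05), so 0 higher and 0 lower, 56 genes and 1 lower in the untreated controls, and 119 genes in the knockdown difference. The cause was not tested.

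Replicate numbers are shared between groups, but same-numbered libraries of compared groups correlated weakly in their deviations from the group means (-0.0729 to 0.211), so they were not treated as pairs. All 6 libraries of each overexpression pair correlated best with their own number, against 2 (untreated) and 1 (MPP+) of 6 in the knockdown pairs, a hint from the data and not the design. The replicate block gave 1936 calls in the untreated controls and, in the knockdown difference, 1108 calls with 1 of the 10 genes higher (MXI1), and its other counts lay within 1.5 times those above; by gene, CA12 lost its call in untreated overexpression, and BNIP3L (untreated controls) and EGLN3 (overexpression difference) gained one.

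Leaving out 1 library at a time gave these ranges. Untreated knockdown called 2 to 7236 genes, 0 to 1 of the 10 higher and 0 to 5 lower, with ADM at -0.010 to 0.19 and EGLN3 at -0.0083 to 0.17. Untreated overexpression called 3989 to 7689 genes, 2 to 5 higher and 0 to 1 lower, with ANKRD37 at -0.087 to 0.19 and EGLN3 at -0.027 to 0.22. MPP+ knockdown called 3407 to 4587 genes and 1 to 2 of the 10 higher. MPP+ overexpression called 8202 to 8697 genes and 1 to 3 higher, with MXI1 at -0.0051 to 0.17. The untreated controls called 6 to 2227 genes and 0 to 4 lower, with NDRG1 at -0.17 to 0.067. The MPP+ controls called 5611 to 6804 genes and 1 to 2 higher, with BNIP3 at -0.13 to 0.075 and EGLN3 at -0.13 to 0.25. The knockdown difference called 257 to 2554 genes and 0 to 3 higher (the 3 without shMCART1 replicate 2), with EGLN3 at -0.013 to 0.31. The overexpression difference called 2137 to 2747 genes and 2 to 5 lower, the 2 without oeNC replicate 1 or oeMCART1 MPP+ replicate 3.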

Other observations

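The 5 genes whose pattern was most like the mean z-score of the 10, among 8192 genes with a mean of 5 TPM or more in both tables, were SUN1, a nuclear envelope protein that links nucleus and cytoskeleton (Pearson's r of 0.942 over the 12 untreated and 0.809 over the 12 treated libraries), SCD5, a fatty acid desaturase (0.875 and 0.751), GALNT2, which starts O-glycosylation (0.748 and 0.807), SERPINE2, a secreted protease inhibitor (0.772 and 0.747), and PMP22, a membrane protein of myelin (0.923 and 0.744). The libraries of a table share groups and processing. The mean z-score averages genes that went opposite ways, so likeness to it is not likeness to each of the 10. Pairwise r among the 10 ran from -0.704 to 0.966 untreated and from -0.887 to 0.872 with MPP+. Within the 10 genes, ANKRD37 and NDRG1 went together in both tables (r of 0.763 untreated and 0.784 with MPP+). NDRG1 and VEGFA ran opposite to each other most in the MPP+ libraries (-0.887, and -0.303 untreated), and EGLN1 went with VEGFA in both (0.852 and 0.666). These correlations describe the libraries and carry no test.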
